A study of Homo sapiens with 16 samples.

Results

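The 49 genes described here encode parts of the lysosome, the acidic compartment in which cells degrade proteins, sugars and lipids, and were taken by symbol from the 26830 entries of a deposited expression table. They comprise 10 proteases, 9 enzymes acting on sugar chains, 7 proteins of lipid breakdown (4 enzymes, the activators PSAP and GM2A, and the granulin precursor GRN), 6 membrane proteins, 2 transcription factors and 15 proteins of the proton pump. The series presents CS1 and CS2 as inhibitors of FTO, the enzyme that removes the m6A methyl mark from RNA, and compares them with a hairpin against FTO in the NOMO-1 cell line, which was derived from a human acute monocytic leukaemia. Cells were exposed for 72 h to 100 nM CS1 (n = 3), to 500 nM CS2 (n = 3) or to the solvent DMSO (n = 4). In a second arm, cells carried the lentiviral hairpin shFTO (n = 3) or the hairpin shNS (n = 3) and were kept in 1 µg/ml puromycin for 1 week. The labels give the compounds only as CS1 and CS2. All 5 groups come from 1 cell line, the number of hairpin sequences is not given in the labels, and replicates are called biological in the series text. The doses of CS1 and CS2 differ, so values of both are set side by side and not as a comparison of the compounds themselves.

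Lysosomal hydrolases are made in the endoplasmic reticulum, tagged with mannose 6-phosphate and delivered to a lumen that the V-type proton pump acidifies. The pump has a membrane sector, V0, through which protons pass, and a cytosolic sector, V1, which hydrolyses ATP. TFEB and TFE3 are transcription factors known to activate many lysosomal genes through a short promoter element, and monocytes and macrophages, to which NOMO-1 cells are related, are rich in lysosomes.

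Expression was given as TPM, transcript abundance on a common total, a measure that corrects for transcript length and scales each library to the same total. No read counts come with the table, and library depth is therefore unknown. Fold changes are differences of log2(TPM + 1) from a limma fit to all 16 libraries, a scale that shrinks the changes of weakly expressed genes, and are given ± SE. A gene is called higher or lower where its Benjamini-Hochberg adjusted p over the 14951 entries tested was under 0.05. FTO itself stood at 8.12, 7.49 and 8.35 TPM in shFTO libraries and at 31.3, 30.8 and 32.8 TPM in shNS libraries (fold change -1.86 ± 0.06, limma adjusted p = 7.4e-12), while it was not called after either compound. The median of all tested entries was itself shifted, by 0.09 after CS1, by 0.20 after CS2 and by 0.07 with shFTO. Ribosomal protein entries held 8.44 ± 0.11% of all TPM in CS2 libraries, 14.3 ± 0.59% in CS1 and 15.4 ± 0.74% in DMSO libraries (SD, n = 3, 3 and 4).

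Of the 49 genes, 47 passed the filter of 1 TPM in 3 libraries. The protease CTSL, at 0 to 0.32 TPM, and the pump subunit ATP6V0A1, at 0.02 to 0.23 TPM, did not and were not tested. CTSD, an aspartyl protease that is among the most abundant in the lysosome, had by far the highest level, with a mean of 2886 ± 24.4 TPM in CS1, 1464 ± 96.9 in CS2 and 2442 ± 151 in DMSO libraries (SD). In the hairpin arm it stood at 7407 ± 315 TPM in shFTO and 5628 ± 142 TPM in shNS libraries. Next in DMSO libraries came ASAH1 (557 ± 29.2 TPM), LAPTM5 (522 ± 16.7) and LAMP1 (514 ± 12.7), and the ranges of these 3 overlapped. The 49 genes together held 1.23 ± 0.0076% of all TPM in CS1 libraries, 1.16 ± 0.0060% in CS2 and 0.964 ± 0.030% in DMSO libraries (SD). They held 2.07 ± 0.040% in shFTO libraries and 1.46 ± 0.031% in shNS libraries, and neither arm's groups overlapped. In bulk RNA, a change in how many cells make a transcript and a change in how much each cell makes cannot be told apart.

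Most lysosomal genes were higher in each perturbed group than in its own control. After CS1, 41 of the 47 were called higher and 1 lower, where 37.5% of all tested entries were called higher and 14.3% lower. After CS2, 37 were higher and 7 lower, beside 49.5% higher and 24.6% lower among all entries. With shFTO, 36 were higher and 2 lower, beside 31.9% higher and 24.5% lower. Their median fold changes were 0.34 after CS1, 0.43 after CS2 and 0.45 with shFTO, beside 0.09, 0.20 and 0.07 for all entries. The calls depend on scaling. With median-ratio scaling, which brings the median of all entries to -0.02 after CS1 and 0.00 after CS2, the counts were 28 higher and 3 lower after CS1, 25 and 11 after CS2, and 33 and 4 with shFTO. Leaving ribosomal RNA, mitochondrial-like and ribosomal protein entries out of the TPM total gave 33 higher and 2 lower after CS1, 30 and 10 after CS2, and 38 and 2 with shFTO. Shares of all entries are given throughout for the deposited scale only, so counts under other scaling have no such share beside them. CS1 and CS2 share the DMSO libraries, so their counts are not independent of each other.

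**Figure D1:**
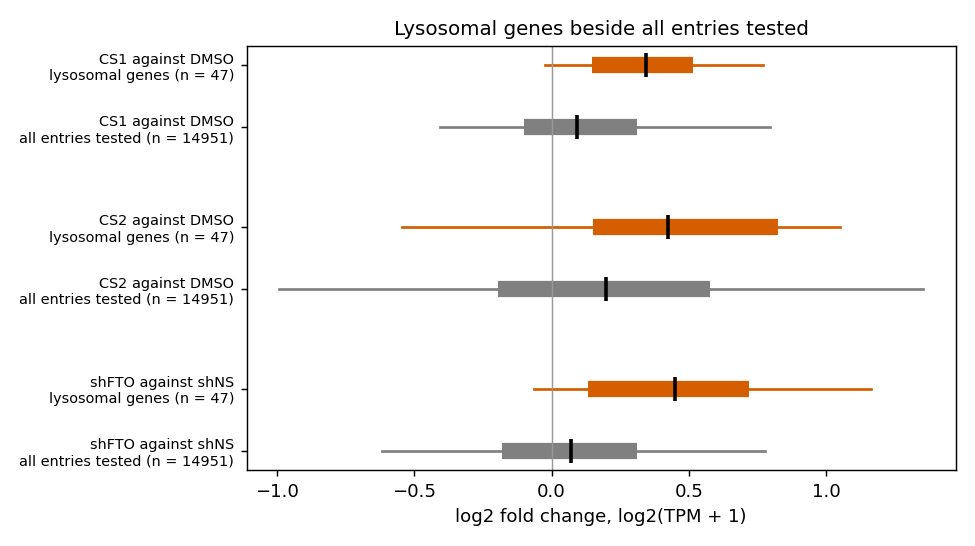
Fold changes on the log2(TPM + 1) scale (horizontal axis) of the 47 tested lysosomal genes (orange) and of all 14951 tested entries (grey) for CS1 and CS2 against DMSO and shFTO against shNS. Bars span the interquartile range, lines reach the 5th and the 95th percentile and black ticks mark the medians, which for the lysosomal genes lie at 0.34, 0.43 and 0.45.

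**Figure D2:**
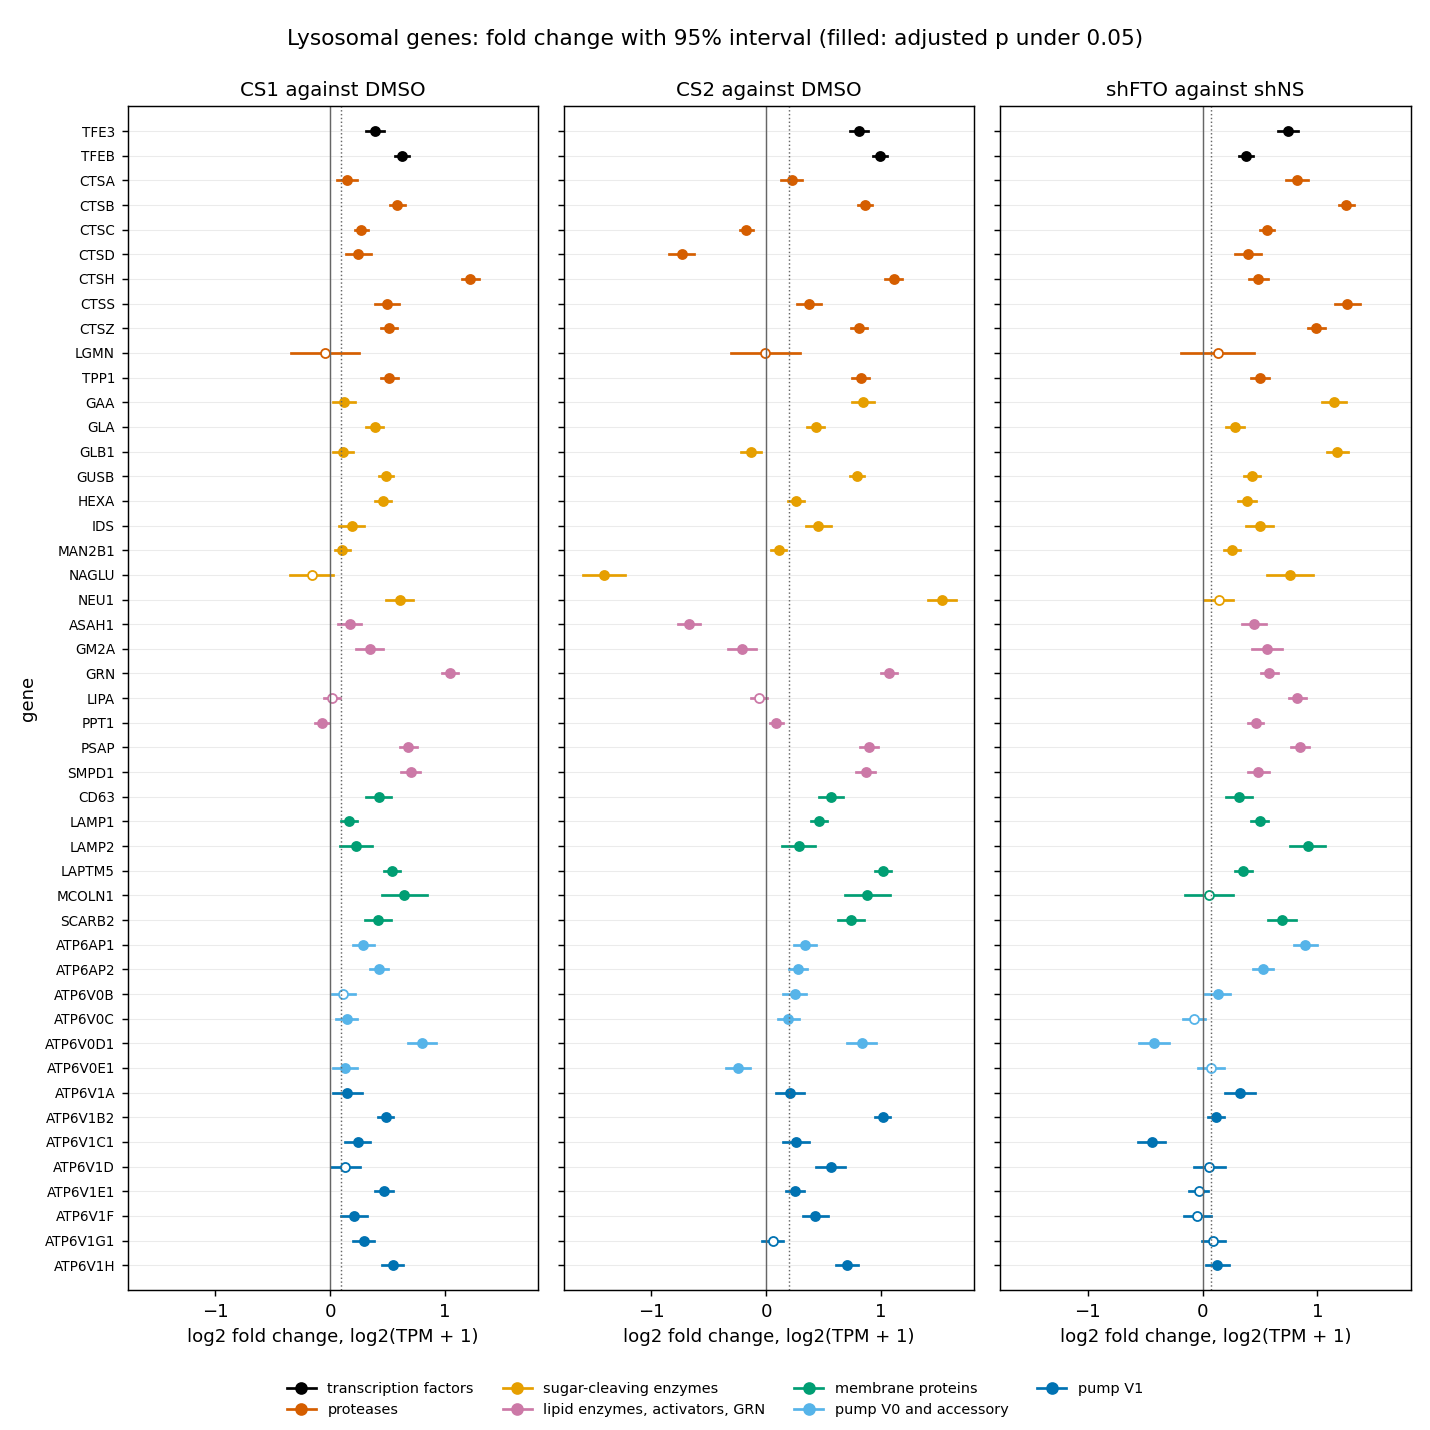
Fold change (horizontal axis, log2(TPM + 1) scale) with 95% confidence interval for each of the 47 tested lysosomal genes, coloured by role, in CS1 against DMSO, CS2 against DMSO and shFTO against shNS. Filled points passed an adjusted p of 0.05 and the dotted line is the median of all tested entries. NAGLU, CTSD and ASAH1 lie left of 0 after CS2, and ATP6V0D1 and ATP6V1C1 lie left of 0 with shFTO.

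Both transcription factors were higher in every perturbation. TFEB (chr6:41683978-41736259, minus strand, GRCh38) is held in the cytosol when nutrients are plentiful and enters the nucleus on lysosomal stress. It stood at 251, 252 and 256 TPM in CS1, 328, 333 and 318 TPM in CS2 and 164, 161, 162 and 168 TPM in DMSO libraries. In the hairpin arm it had 245, 241 and 247 TPM in shFTO and 184, 194 and 185 TPM in shNS libraries. No perturbed library reached down to its controls, and CS2 libraries were the highest. Relative to the controls, fold changes were 0.62 ± 0.027 for CS1, 0.99 ± 0.027 for CS2 and 0.38 ± 0.029 for shFTO (limma adjusted p = 2.4e-10, 2.6e-13 and 6.1e-08).

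TFE3, a close relative of TFEB encoded on the X chromosome (chrX:49028726-49043486, minus strand), had 40.97, 43.8 and 40.4 TPM in CS1, 56.6, 57.2 and 54.02 TPM in CS2 and 31.4, 30.9, 31.7 and 32.1 TPM in DMSO libraries. It stood at 50.8, 53.03 and 53.7 TPM in shFTO and 31.03, 31.7 and 30.1 TPM in shNS libraries. Here too no perturbed library overlapped its controls, with fold changes of 0.39 ± 0.037, 0.81 ± 0.037 and 0.74 ± 0.039 (limma adjusted p = 4.9e-07, 3.6e-11 and 1.3e-09). The TFEB response to CS1 exceeded that to shFTO by 0.24 ± 0.04, whereas the TFE3 response to CS1 was the smaller one, at -0.35 ± 0.054 (limma adjusted p = 0.00014 and 7.9e-05).

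The core of the element that TFEB and TFE3 bind is the hexamer CACGTG, and a preceding T gives the longer form TCACGTG, read as CACGTGA on the other strand. RefSeq promoter windows (GRCh38.p14), from 250 bases before to 50 after the start, were matched for 36 of the 49 genes. TCACGTG was found on either strand in 9 of these 36 (25%) and in 4.49% of the 27305 genes with a window. Counting the hexamer, which every longer match contains, gave 10 of 36 (27.8%) and 8.77% of all genes. A match describes the letters in the window and does not show binding. The 200 bases before the start of 6 of the 9 genes are shown, chosen for their distinct responses, on the gene's own strand with matches to TCACGTG or CACGTGA in capitals. MCOLN1 (chr19:7522424-7522623, plus strand) and GAA (chr17:80101381-80101580, plus) hold a pair of matches each. NEU1 (chr6:31862822-31863021, minus), CTSD (chr11:1763928-1764127, minus) and ATP6V0D1 (chr16:67481158-67481357, minus) hold 1 each. LAMP1 (chr13:113297039-113297238, plus) holds 5 in the bases shown and 6 in its whole window. The RefSeq starts differ in part from the GENCODE 29 gene positions given elsewhere in the text. The bases shown for CTSD lie inside its GENCODE position, and those for GAA, NEU1 and ATP6V0D1 reach into theirs.
MCOLN1: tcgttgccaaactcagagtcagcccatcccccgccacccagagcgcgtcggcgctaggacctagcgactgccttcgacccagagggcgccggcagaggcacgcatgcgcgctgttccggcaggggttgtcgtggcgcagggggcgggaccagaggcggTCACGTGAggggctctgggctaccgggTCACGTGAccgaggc
GAA: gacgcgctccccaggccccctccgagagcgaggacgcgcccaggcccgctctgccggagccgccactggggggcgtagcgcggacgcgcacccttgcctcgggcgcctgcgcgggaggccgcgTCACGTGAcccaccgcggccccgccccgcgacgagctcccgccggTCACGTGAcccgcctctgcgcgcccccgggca
NEU1: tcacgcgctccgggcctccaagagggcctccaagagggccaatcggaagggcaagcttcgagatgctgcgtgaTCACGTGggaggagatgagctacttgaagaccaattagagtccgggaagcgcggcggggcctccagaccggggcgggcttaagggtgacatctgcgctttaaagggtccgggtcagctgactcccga
CTSD: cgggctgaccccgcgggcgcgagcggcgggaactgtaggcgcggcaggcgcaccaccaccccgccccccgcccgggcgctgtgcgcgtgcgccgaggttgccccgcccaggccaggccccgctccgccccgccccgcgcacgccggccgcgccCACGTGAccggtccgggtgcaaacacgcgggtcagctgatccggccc
ATP6V0D1: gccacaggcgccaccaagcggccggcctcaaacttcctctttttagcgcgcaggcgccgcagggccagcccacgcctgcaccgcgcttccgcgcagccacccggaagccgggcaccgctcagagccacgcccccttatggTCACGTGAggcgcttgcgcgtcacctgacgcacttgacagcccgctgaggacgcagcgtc
LAMP1: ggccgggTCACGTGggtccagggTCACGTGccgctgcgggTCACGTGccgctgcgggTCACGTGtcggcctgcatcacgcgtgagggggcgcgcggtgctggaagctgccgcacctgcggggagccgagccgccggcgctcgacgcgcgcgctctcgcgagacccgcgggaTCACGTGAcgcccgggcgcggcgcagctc

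The genes with the longer element did not move as a block. MCOLN1 and NEU1 were higher after both compounds, with shFTO fold changes of 0.06 and 0.14 that were not called. ATP6V0D1 was higher after both compounds and lower with shFTO. CTSD was lower after CS2 (-0.74) and higher with shFTO (0.40), and LAMP1 and GAA were higher in all 3 comparisons as deposited. The remaining 3 carriers are CTSA, ATP6V0B and ATP6V1G1. Among the 9 carriers, 8 were higher and none lower after CS1, 7 and 1 after CS2, and 5 and 1 with shFTO. Of the 25 tested genes whose window lacks the element, 22 were higher and 1 lower after CS1, 21 and 3 after CS2, and 21 and 0 with shFTO. For all tested entries the shares were 37.5% higher and 14.3% lower after CS1, 49.5% and 24.6% after CS2, and 31.9% and 24.5% with shFTO. Whether carriers differ from the others was not tested.

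Among the proteases, 9 were tested. After CS1, 8 of them were higher and none lower, after CS2 6 were higher and 2 lower, and with shFTO 8 were higher and none lower. Among all tested entries, 37.5% were higher and 14.3% lower after CS1, 49.5% and 24.6% after CS2, and 31.9% and 24.5% with shFTO. The number lower after CS2 was near the share of all entries. LGMN, the asparaginyl endopeptidase, was barely expressed, at 0.55 to 1.25 TPM in all libraries, and was called in none. CTSH (chr15:78921058-78949574, minus strand), a cathepsin that trims amino acids from protein ends, had the largest rise of the 47 genes after CS1. It stood at 209, 208 and 196 TPM in CS1, 184, 186 and 196 TPM in CS2 and 82.98, 87.05, 87.9 and 90.5 TPM in DMSO libraries. Its levels were 273, 265 and 263 TPM in shFTO and 187, 194 and 192 TPM in shNS libraries. All treated libraries lay above their controls. The log2 fold changes were 1.22 ± 0.035, 1.11 ± 0.035 and 0.48 ± 0.038 for CS1, CS2 and shFTO (limma adjusted p = 8.3e-12, 8.9e-13 and 7.2e-08), and both compound responses exceeded that to shFTO, by 0.74 ± 0.052 and 0.62 ± 0.052 (adjusted p = 4.8e-08 and 6.1e-08).

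Cathepsins B, S and Z responded most to the hairpin. CTSB, a broad cysteine protease, had 981, 993 and 943 TPM in shFTO and 397, 415 and 410.3 TPM in shNS libraries. After the compounds it stood at 407, 411 and 388 TPM in CS1, 489, 488 and 483 in CS2 and 264, 263, 269 and 274 in DMSO libraries. No perturbed library overlapped its controls, and the fold changes were 0.59 ± 0.029, 0.86 ± 0.029 and 1.25 ± 0.031 for CS1, CS2 and shFTO (limma adjusted p = 7.9e-10, 1.6e-12 and 6.3e-13). CTSS, which processes the invariant chain of MHC class II, had 127, 131 and 133 TPM in shFTO and 52.1, 55.3 and 53.8 TPM in shNS libraries. Against these, it had 53.01, 51.4 and 47.5 TPM in CS1, 47.5, 48.8 and 43.2 in CS2 and 36.5, 37.4, 33.98 and 35.0 in DMSO libraries. Again no perturbed library overlapped its controls, while CS1 and CS2 libraries overlapped each other, and the fold changes were 0.49, 0.37 and 1.26 for CS1, CS2 and shFTO. CTSZ, a carboxypeptidase, rose by 0.51, 0.81 and 0.99 in the same order. For each of these cathepsins the responses to CS1 and to CS2 were both smaller than that to shFTO, with differences of -0.67 and -0.39 for CTSB, -0.77 and -0.89 for CTSS, and -0.48 and -0.19 for CTSZ (largest limma adjusted p = 0.0036).

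CTSD and CTSC went opposite ways after CS2 and with shFTO. CTSD (chr11:1752752-1764573, minus strand) had 2879, 2866 and 2913 TPM in CS1, 1400.1, 1417 and 1576 TPM in CS2 and 2307, 2325, 2520.3 and 2617 TPM in DMSO libraries. It had 7660.0, 7508 and 7054 TPM in shFTO and 5466, 5730.1 and 5688 TPM in shNS libraries. CS2 libraries were thus below every DMSO library and CS1 libraries above. Its fold changes were 0.24 ± 0.051, -0.74 ± 0.051 and 0.40 ± 0.054 for CS1, CS2 and shFTO (limma adjusted p = 0.00097, 3.7e-09 and 2e-05). With quantile normalization, which ties the highest ranks of all libraries to the same values, the CS2 change was -0.04 and not called, and with median-ratio scaling that of CS1 was 0.11 and not called. In GENCODE 29, 41.7% of the exonic length of CTSD also lies in another protein-coding gene on the same strand that has no entry in the table, so its level is uncertain. CTSC, the dipeptidyl peptidase that activates granule serine proteases, had 341, 340 and 345 TPM in CS1, 259, 251 and 243 TPM in CS2 and 279 to 288 TPM in DMSO libraries, with fold changes of 0.27 for CS1 and -0.18 for CS2. With shFTO it changed by 0.56, the opposite sign to CS2. The difference between the CS2 and shFTO responses was -1.13 ± 0.074 for CTSD and -0.74 ± 0.04 for CTSC (limma adjusted p = 4.9e-09 and 5.9e-10). CTSA, the carboxypeptidase that protects NEU1 and GLB1, changed by 0.15, 0.22 and 0.82, though its CS2 value was -0.01 with median-ratio scaling. TPP1, a tripeptidyl peptidase, changed by 0.52, 0.82 and 0.50.

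**Figure D3:**
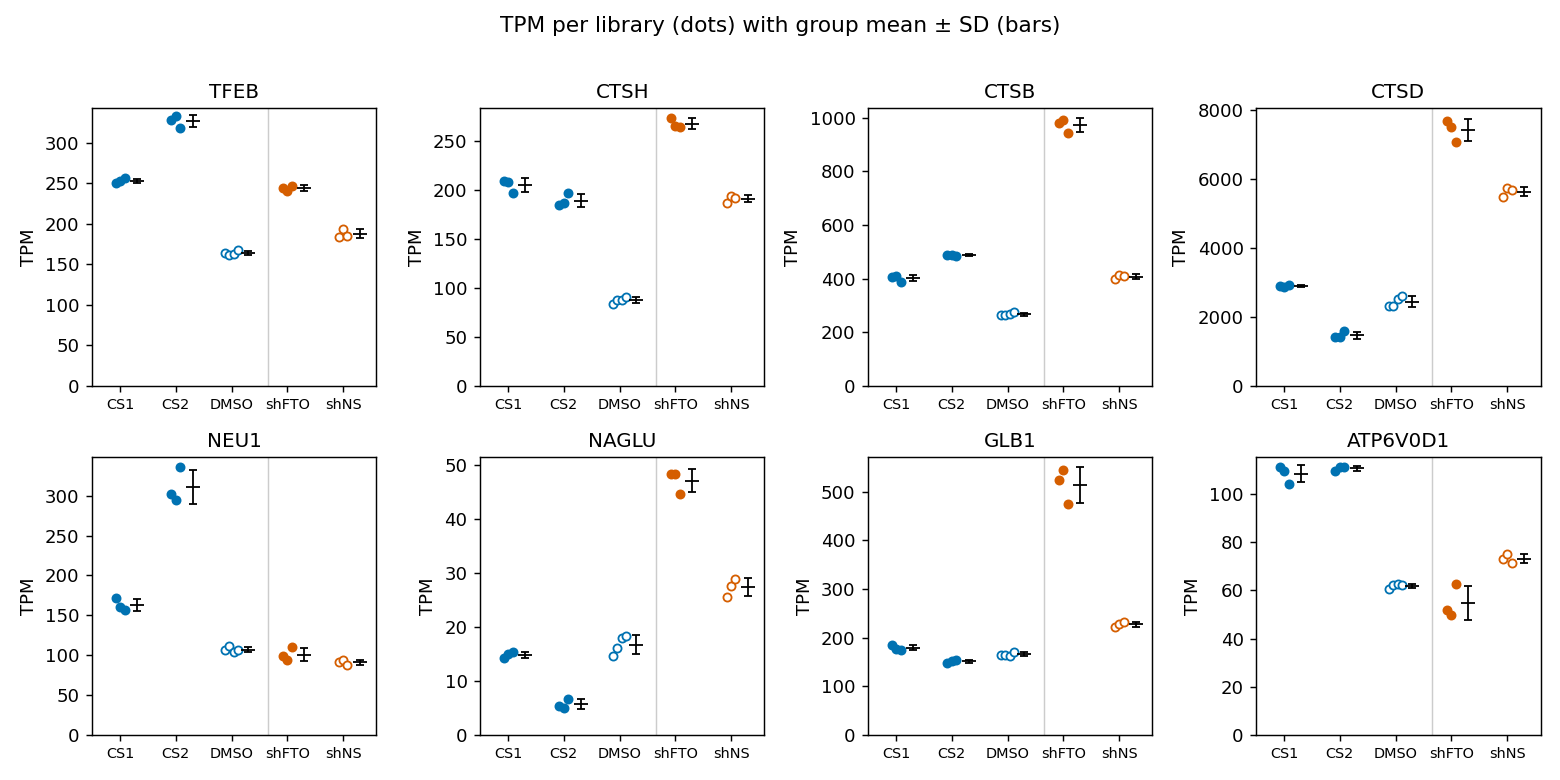
TPM in each library (dots, vertical axis from 0) with the group mean ± SD (bars) for 8 lysosomal genes, with CS1, CS2 and DMSO to the left of the line and shFTO and shNS to the right. CTSD and NAGLU are lower in CS2 than in DMSO libraries and higher in shFTO than in shNS libraries, NEU1 is highest in CS2, and ATP6V0D1 is high after both compounds and low in shFTO.

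Of the 9 enzymes that act on sugar chains, 8 were higher and none lower after CS1, 7 higher and 2 lower after CS2, and 8 higher and none lower with shFTO. These stand beside 37.5% of all entries higher and 14.3% lower after CS1, 49.5% and 24.6% after CS2, and 31.9% and 24.5% with shFTO. The number lower after CS2 was near that share. With median-ratio scaling the CS1 counts were 4 higher and 1 lower. NEU1 (chr6:31857659-31862906, minus strand), the sialidase that removes terminal sialic acid, had the largest rise of all 47 genes after CS2. It stood at 172, 161 and 157 TPM in CS1, 302, 295 and 336 TPM in CS2 and 107, 111, 104 and 106 TPM in DMSO libraries. In the hairpin arm it had 98.5, 93.4 and 110.0 TPM in shFTO and 91.2, 93.96 and 87.8 TPM in shNS libraries. CS2 libraries lay far above CS1 libraries and these above all DMSO libraries, while shFTO and shNS libraries overlapped. The fold changes were 0.61 ± 0.056 and 1.53 ± 0.056 for CS1 and CS2 (limma adjusted p = 4e-07 and 3.4e-12). For shFTO it was 0.14 ± 0.06 (limma adjusted p = 0.057), which passed with quantile normalization (0.18). Both compound responses exceeded it, by 0.46 ± 0.082 for CS1 and 1.39 ± 0.082 for CS2 (limma adjusted p = 0.00026 and 1.5e-09).

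NAGLU (chr17:42536172-42544449, plus strand), which removes N-acetylglucosamine from heparan sulphate, showed the reverse pattern. Its levels were 14.2, 14.96 and 15.3 TPM in CS1, 5.42, 4.93 and 6.66 TPM in CS2 and 14.6, 16.03, 17.98 and 18.4 TPM in DMSO libraries. It had 48.4, 48.3 and 44.7 TPM in shFTO and 25.5, 27.6 and 28.9 TPM in shNS libraries. Every CS2 library was below every DMSO library, CS1 and DMSO libraries overlapped, and shFTO libraries were all above shNS. The log2 fold changes were -1.41 ± 0.087 for CS2 and 0.76 ± 0.093 for shFTO (limma adjusted p = 1e-09 and 6.2e-06). That of CS1, -0.16 ± 0.087, was not called as deposited (limma adjusted p = 0.14) but was with median-ratio scaling (-0.29). The CS2 and shFTO responses differed by -2.18 ± 0.13 (limma adjusted p = 1.5e-09), the widest gap among the 47 genes.

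GLB1, the beta-galactosidase, and GAA, which degrades glycogen, had their largest fold changes with shFTO. GLB1 (chr3:32996608-33097230, minus strand) had 523, 544 and 474 TPM in shFTO and 221, 228 and 231 TPM in shNS libraries. After the compounds its levels were 185, 177 and 175 TPM in CS1, 149, 151 and 153 in CS2 and 164, 164, 163 and 171 in DMSO libraries. The shFTO libraries stood above all others, and CS2 libraries were just below DMSO. GLB1 changed by 1.17 ± 0.044 with shFTO and by -0.13 ± 0.041 after CS2 (limma adjusted p = 3.1e-11 and 0.0092). Its CS1 value of 0.11 was -0.02 with median-ratio scaling and lost its call without any of 5 single libraries (CS1 replicates 1 or 2, DMSO replicates 1, 2 or 3).

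GAA (chr17:80101556-80119879, plus strand) had 32.04, 32.5 and 32.5 TPM in CS1, 52.3, 52.98 and 56.7 TPM in CS2 and 27.3, 29.7, 31.5 and 30.1 TPM in DMSO libraries. It had 99.7, 99.6 and 93.2 TPM in shFTO and 44.2, 42.8 and 43.7 TPM in shNS libraries. CS2 and shFTO libraries lay well above their controls, and the CS1 libraries only just did. Its fold changes were 0.85 ± 0.045 for CS2 and 1.14 ± 0.048 for shFTO (limma adjusted p = 1.8e-10 and 1.1e-10). For CS1 the value was 0.12, which became -0.0076 with median-ratio scaling and was not called without any of the 3 CS1 replicates or DMSO replicates 1 or 2. The remaining enzymes of this kind rose in all 3 comparisons as deposited. These are HEXA (beta-hexosaminidase, 0.46, 0.26 and 0.39 for CS1, CS2 and shFTO), GLA (alpha-galactosidase, 0.39, 0.43 and 0.28), GUSB (beta-glucuronidase, 0.48, 0.79 and 0.43) and IDS (a sulphatase of glycosaminoglycans, 0.19, 0.45 and 0.50). MAN2B1 (alpha-mannosidase) also rose, by 0.11, 0.11 and 0.25, but with median-ratio scaling its values were -0.03 for CS1 and -0.12 for CS2. GUSB has 11 named pseudogenes in GENCODE 29, of which 6 are in the table, and reads could be split among them.

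The 7 proteins of lipid breakdown were all higher with shFTO, with fold changes between 0.45 (ASAH1) and 0.85 (PSAP). After CS1, 5 were higher and 1 lower, and after CS2, 4 were higher and 2 lower. All tested entries had 31.9% higher with shFTO, 37.5% higher and 14.3% lower after CS1, and 49.5% and 24.6% after CS2. Both CS2 counts were near these shares, as was the number lower after CS1. For CS2 the split turned to 3 higher and 4 lower with median-ratio scaling. PSAP (chr10:71816298-71851375, minus strand) is the precursor of the saposins, which present sphingolipids to their enzymes. It stood at 433, 433 and 415 TPM in CS1, 471, 488 and 528 TPM in CS2 and 259.9, 262, 269 and 273 TPM in DMSO libraries. In the hairpin arm it had 1154, 1151 and 1116 TPM in shFTO and 619.8, 639 and 639.7 TPM in shNS libraries. None of these groups overlapped its control, and the fold changes were 0.68 ± 0.036, 0.89 ± 0.036 and 0.85 ± 0.038 for CS1, CS2 and shFTO (limma adjusted p = 1.2e-09, 8.8e-12 and 2.6e-10).

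GRN (chr17:44345086-44353102, plus strand), the progranulin precursor that binds prosaposin on its way to the lysosome, had 563, 552 and 519 TPM in CS1, 555, 552 and 551 TPM in CS2 and 261, 254, 263 and 276 TPM in DMSO libraries. It had 1045, 1001 and 1012 TPM in shFTO and 677, 688 and 675 TPM in shNS libraries. Levels after both compounds were close to each other and far above those of DMSO cells, and no perturbed library overlapped its controls. Relative to the controls, fold changes were 1.04 ± 0.033, 1.07 ± 0.033 and 0.58 ± 0.035 (limma adjusted p = 1.6e-11, 5.9e-13 and 4.7e-09). SMPD1, the acid sphingomyelinase, was much less abundant, with 21.2, 21.2 and 20.4 TPM in CS1, 22.9, 24.6 and 23.1 TPM in CS2 and 12.1, 12.3, 12.8 and 12.7 TPM in DMSO libraries. Its levels were 29.8, 28.3 and 29.9 TPM in shFTO and 20.8, 20.9 and 20.3 TPM in shNS libraries. It too was higher without overlap in each, by 0.70, 0.86 and 0.49 for CS1, CS2 and shFTO.

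ASAH1, the acid ceramidase that acts a step after SMPD1, moved the other way after CS2. It had 629.7, 611 and 639 TPM in CS1, 349, 351 and 347 TPM in CS2 and 527, 539, 580.0 and 585 TPM in DMSO libraries. In the hairpin arm it had 1049, 1105 and 961 TPM in shFTO and 743, 762 and 773 TPM in shNS libraries. The CS2 libraries were the lowest of all, and the shFTO libraries the highest. The fold changes were 0.17 ± 0.045, -0.67 ± 0.045 and 0.45 ± 0.049 for CS1, CS2 and shFTO (limma adjusted p = 0.0057, 2.9e-09 and 1.9e-06), and the CS1 value was 0.03 and not called with median-ratio scaling. GM2A, which lifts the ganglioside GM2 to its hexosaminidase, changed by 0.34, -0.21 and 0.56. LIPA, the acid lipase of cholesteryl esters, was called with shFTO (0.83) and not after CS1 (0.02) or CS2 (-0.06), although median-ratio scaling gave called values of -0.12 and -0.29. PPT1, which removes palmitate from proteins, was -0.07 after CS1, 0.09 after CS2 and 0.46 with shFTO. Its CS1 call was lost without each of 6 of the 7 libraries (all but DMSO replicate 1), its CS2 call was lost without CS2 replicate 1 and its value was -0.15 with median-ratio scaling, and 23.4% of its exonic length overlaps CAP1 on the other strand.

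All 6 membrane proteins were higher after CS1 and after CS2, and 5 were higher with shFTO, beside 37.5%, 49.5% and 31.9% of all entries. LAPTM5 (chr1:30732469-30757820, minus strand), a lysosomal protein of blood cells, had 755, 747 and 767 TPM in CS1, 1061, 1026 and 1084 TPM in CS2 and 509, 507, 531 and 541 TPM in DMSO libraries. It stood at 752, 766 and 801 TPM in shFTO and 589.5, 613 and 608 TPM in shNS libraries. The CS2 libraries were highest and no perturbed library reached its controls. Its fold changes were 0.54 ± 0.032, 1.02 ± 0.032 and 0.36 ± 0.035 for CS1, CS2 and shFTO (limma adjusted p = 5e-09, 8.6e-13 and 6.5e-07). LAMP2 (chrX:120427827-120469365, minus strand), a major coat protein and receptor of chaperone-mediated autophagy, had 218, 219 and 197 TPM in CS1, 235, 229.8 and 195 TPM in CS2 and 189, 188, 168 and 177 TPM in DMSO libraries. Its levels were 259, 284 and 261 TPM in shFTO and 133, 148 and 144 TPM in shNS libraries. All CS1 and CS2 libraries stood above the highest DMSO library, but by little in the lowest of them, and shFTO libraries were well apart from shNS. LAMP2 changed by 0.23 ± 0.066, 0.28 ± 0.066 and 0.91 ± 0.071 (limma adjusted p = 0.01, 0.0013 and 6.9e-08), and with median-ratio scaling the compound values were 0.09 and 0.05 and not called.

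MCOLN1 (chr19:7522626-7534009, plus strand) is the channel that releases calcium from the lysosome. It had 19.5, 20.2 and 20.1 TPM in CS1, 21.97, 23.3 and 25.6 TPM in CS2 and 12.5, 11.7, 12.8 and 12.6 TPM in DMSO libraries. In the hairpin arm it had 10.03, 8.96 and 13.2 TPM in shFTO and 10.2, 10.5 and 9.78 TPM in shNS libraries. It was raised without overlap by both compounds, whereas the shFTO libraries spread around the shNS ones. Relative to the controls, fold changes were 0.64 ± 0.091 and 0.88 ± 0.091 for CS1 and CS2 (limma adjusted p = 3e-05 and 4e-07) and 0.06 ± 0.097 for shFTO (limma adjusted p = 0.64). The compound responses exceeded the shFTO response by 0.59 ± 0.13 for CS1 and 0.82 ± 0.13 for CS2 (limma adjusted p = 0.002 and 6.7e-05). LAMP1, the other main coat protein, changed by 0.17, 0.46 and 0.50 for CS1, CS2 and shFTO. The tetraspanin CD63 changed by 0.42, 0.56 and 0.32, and SCARB2, the receptor that carries glucocerebrosidase to the lysosome, by 0.41, 0.74 and 0.69.

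Of the 14 tested genes of the proton pump, 12 were higher and none lower after CS1, 12 higher and 1 lower after CS2, and 6 higher and 2 lower with shFTO, with medians of 0.26, 0.27 and 0.08. These are 85.7% and 0% of the tested pump genes after CS1, 85.7% and 7.14% after CS2, and 42.9% and 14.3% with shFTO, beside 37.5% and 14.3%, 49.5% and 24.6%, and 31.9% and 24.5% of all entries. With median-ratio scaling the counts were 8 and 0 after CS1, 5 and 2 after CS2, and 3 and 4 with shFTO. In the direct test, 8 pump genes responded more to CS1 than to shFTO and 1 less, and 8 more to CS2 and 3 less, beside 31.0% more and 18.3% less of all entries for CS1 and 39.8% and 23.7% for CS2. The summed level of all 15 was 2188 ± 31.8 TPM in CS1, 2289 ± 34.3 TPM in CS2 and 1781 ± 33.2 TPM in DMSO libraries (SD). It was 2292 ± 11.9 TPM in shFTO and 1975 ± 38.3 TPM in shNS libraries. Most of this hairpin difference lay in the accessory genes ATP6AP1 and ATP6AP2. Their means were 463 and 276 TPM in shFTO and 248 and 191 TPM in shNS libraries.

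ATP6V0D1 (chr16:67438014-67481237, minus strand), the V0 subunit d that joins the membrane and cytosolic sectors, showed opposite responses. It stood at 111, 109.8 and 104 TPM in CS1, 109.6, 111 and 111 TPM in CS2 and 60.8, 62.1, 62.5 and 62.2 TPM in DMSO libraries. It had 51.8, 49.7 and 62.8 TPM in shFTO and 73.1, 75.3 and 71.5 TPM in shNS libraries. All compound libraries were above, and all shFTO libraries below, their controls, with shFTO replicate 3 nearest to them. The log2 fold changes were 0.80 ± 0.058, 0.83 ± 0.058 and -0.42 ± 0.062 for CS1, CS2 and shFTO (limma adjusted p = 3.2e-08, 4.2e-09 and 3.7e-05). They differed from shFTO by 1.22 ± 0.085 for CS1 and 1.25 ± 0.085 for CS2 (limma adjusted p = 4.2e-08 and 6.8e-09).

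ATP6V1C1, a V1 stalk subunit involved in the reversible assembly of the pump, did likewise. It had 95.5, 97.9 and 90.5 TPM in CS1, 98.3, 100.2 and 89.1 TPM in CS2 and 79.2, 80.3, 79.8 and 80.5 TPM in DMSO libraries. It had 45.7, 47.6 and 53.7 TPM in shFTO and 64.8, 67.7 and 67.8 TPM in shNS libraries. CS1 and CS2 libraries overlapped each other but not the DMSO libraries, shFTO and shNS libraries did not overlap, and the fold changes were 0.24, 0.26 and -0.44. With median-ratio scaling the CS2 value was 0.03 and not called. Its difference from shFTO was 0.68 ± 0.076 for CS1 and 0.70 ± 0.076 for CS2 (limma adjusted p = 3.9e-06 and 1.1e-06).

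ATP6V1B2, a catalytic-sector subunit that helps form the ATP-binding sites, had 213, 224 and 206 TPM in CS1, 312, 314 and 302 TPM in CS2 and 154, 153, 151 and 154 TPM in DMSO libraries. Its levels were 181, 188 and 181 TPM in shFTO and 165, 171 and 169 TPM in shNS libraries. CS2 libraries stood highest, CS1 libraries lay between CS2 and DMSO, and the shFTO libraries were only slightly above shNS. The fold changes were 0.48 ± 0.03, 1.01 ± 0.03 and 0.12 ± 0.033 for CS1, CS2 and shFTO (limma adjusted p = 7.4e-09, 5.1e-13 and 0.0053), the last being 0.04 and not called with median-ratio scaling.

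The accessory subunit ATP6AP1 (chrX:154428632-154436516, plus strand) had its largest fold change with shFTO. It had 486, 484 and 419 TPM in shFTO and 239, 252 and 253 TPM in shNS libraries. After the compounds it stood at 228, 229.6 and 229 TPM in CS1, 237, 239.8 and 233 in CS2 and 187, 183, 187 and 192 in DMSO libraries. The shFTO libraries were the highest, and no perturbed library overlapped its controls. ATP6AP1 rose by 0.90 ± 0.047 with shFTO and by 0.29 ± 0.044 and 0.34 ± 0.044 after CS1 and CS2 (limma adjusted p = 1e-09, 5.5e-05 and 4.6e-06), and the compound responses were smaller by -0.61 and -0.56. ATP6AP2, the other accessory protein, rose by 0.43, 0.28 and 0.53 for CS1, CS2 and shFTO.

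Of the other V1 genes, ATP6V1H, a regulatory subunit, changed by 0.54, 0.70 and 0.13, the last call being lost without shFTO replicates 2 or 3 or shNS replicates 1 or 3. The stalk subunit ATP6V1E1 changed by 0.47 and 0.25 after CS1 and CS2, and ATP6V1F, a rotor subunit, by 0.21 and 0.43, with 23.7% of its exonic length overlapping KCP on the other strand. Their shFTO values of -0.03 and -0.04 were not called. ATP6V1D, also of the rotor, was called after CS2 (0.56) and not after CS1 (0.13) or with shFTO (0.06). ATP6V1A, the catalytic subunit, changed by 0.15, 0.21 and 0.33. Its CS1 call was lost without each of 4 of the 7 libraries (CS1 replicates 1 or 2, DMSO replicates 3 or 4), and with median-ratio scaling its CS2 value was -0.02. ATP6V1G1, another stalk subunit, was called after CS1 (0.29) and not with shFTO (0.09) or CS2 (0.05), the last becoming -0.18 and called lower with median-ratio scaling.

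Among the V0 ring subunits, ATP6V0C, which forms most of the proton-carrying ring, changed by 0.14 and 0.19 after CS1 and CS2, where the CS2 value was -0.04 with median-ratio scaling, and by -0.07 with shFTO, which was not called. ATP6V0B, another ring subunit, was 0.11 after CS1, not called, 0.25 after CS2 and 0.13 with shFTO, where the call was lost without each of 5 of the 6 libraries (all but shFTO replicate 1). The small subunit ATP6V0E1 changed by 0.13 after CS1, a value that was -0.0083 with median-ratio scaling and was not called without CS1 replicates 1 or 2 or DMSO replicates 1 or 2, and by -0.25 after CS2, and was not called with shFTO (0.07). ATP6V0C, ATP6V0E1 and ATP6V1G1 have 4, 4 and 5 named pseudogenes in GENCODE 29, and 57.5% of the exonic length of ATP6V0C lies in a read-through gene, so their levels are uncertain. Subunit a, which lines the proton path, was represented by other isoforms than ATP6V0A1. TCIRG1 (isoform a3) had 36.6 ± 2.35 TPM in CS1, 50.6 ± 3.64 in CS2 and 28.6 ± 1.14 in DMSO libraries (SD), and 92.2 ± 4.38 TPM in shFTO and 51.02 ± 0.767 TPM in shNS libraries. TCIRG1 was called higher in each comparison (0.34, 0.80 and 0.84 for CS1, CS2 and shFTO). ATP6V0A2 (isoform a2) had 21.7 ± 0.253 TPM in CS1, 18.6 ± 0.170 in CS2 and 21.7 ± 0.474 in DMSO libraries, and was lower after CS2 (-0.21).

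The compound and hairpin responses were next set against each other in the limma fit, each taken against its own control libraries. The arms also differ in exposure, 72 h of compound against a hairpin with 1 week of puromycin. Their controls differ too, with mean CTSD at 2442 TPM in DMSO and 5628 in shNS libraries, and LAMP1 at 514 and 410. The part of these differences in the responses was not tested. Relative to shFTO, 15 of the 47 genes responded more to CS1 and 20 less, beside 31.0% and 18.3% of all entries. For CS2, 19 responded more and 19 less, beside 39.8% and 23.7%. For both compounds the number responding more was near the share of all entries. By role, the hydrolases and their cofactors (25 tested, GRN included) had 4 genes with a larger response to CS1 and 15 with a smaller one, and 7 larger and 15 smaller for CS2. The V1 sector had 6 larger and none smaller for either compound. With median-ratio scaling all 47 genes split into 11 more and 22 less for CS1 and 16 more and 23 less for CS2. In all, 6 genes were called lower after CS2 and higher with shFTO, namely CTSC, CTSD, GLB1, NAGLU, GM2A and ASAH1. Among all entries, 24.6% were lower after CS2 and 31.9% higher with shFTO, and the share with both calls was not counted here. Whether these 6 exceed that share is therefore unknown. The difference was called for each of these 6, from -0.74 (CTSC) to -2.18 (NAGLU). They were identified after their values were seen. Because opposite calls in the same fit picked them, a negative difference was fixed by the choice and is no separate support. In the opposite quadrant, ATP6V0D1 and ATP6V1C1 were higher after CS2 and lower with shFTO, beside 49.5% and 24.5% of all entries. The share of entries with both of these calls was not counted here either.

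**Figure D4:**
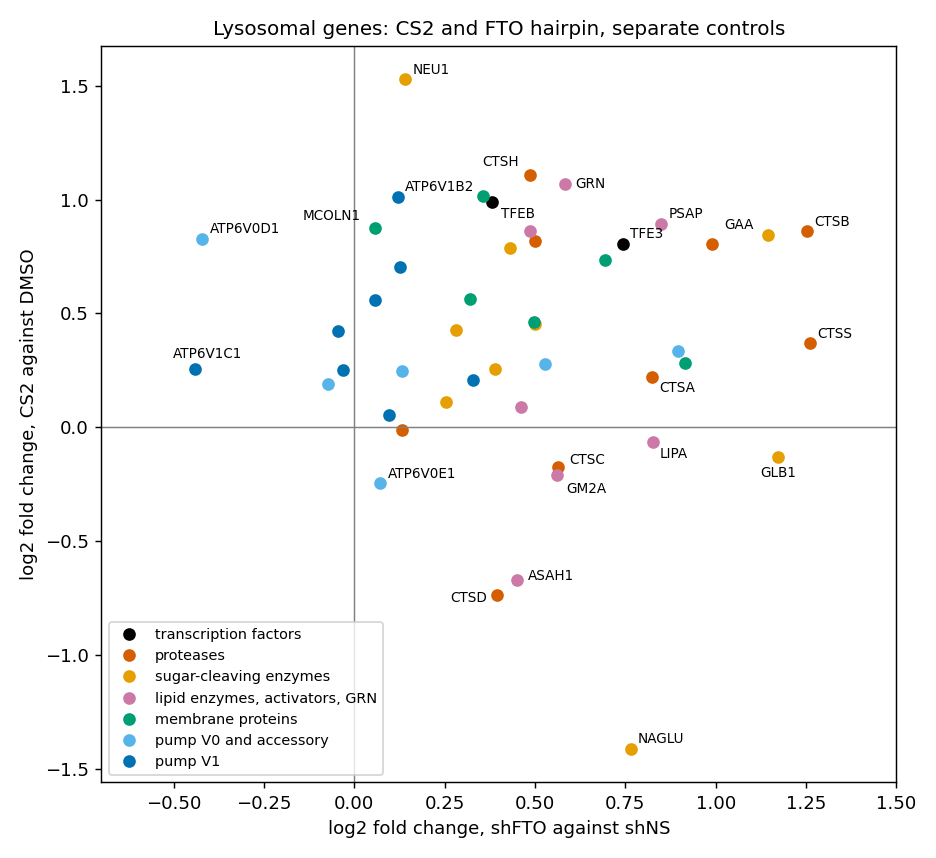
Fold change after CS2 against DMSO (vertical axis) and with shFTO against shNS (horizontal axis), both on the log2(TPM + 1) scale, for the 47 tested lysosomal genes coloured by role. Both comparisons use separate control libraries. Most genes lie in the upper right, NAGLU at 0.76 and -1.41, CTSD and ASAH1 lie in the lower right, and ATP6V0D1 and ATP6V1C1 in the upper left.

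Set side by side at their different doses, CS1 and CS2 libraries differed in 34 of the 47 genes, 12 higher and 22 lower in CS1, beside 26.2% and 40.4% of all entries. The number higher in CS1 was near its share of all entries. With median-ratio scaling the split was 14 higher and 14 lower. Genes higher in CS1 than in CS2 libraries included NAGLU (1.25 ± 0.093), CTSD (0.98 ± 0.054) and ASAH1 (0.84 ± 0.049). Those lower in CS1 than in CS2 libraries included NEU1 (-0.92 ± 0.06), GAA (-0.72 ± 0.048) and ATP6V1B2 (-0.53 ± 0.033), with a largest limma adjusted p of 6.3e-09 among these 6. CTSH (0.11) was called higher in CS1, but the call was lost without 4 of 6 single libraries. GRN differed by -0.02 with a 95% confidence interval from -0.10 to 0.05, and ATP6V0D1 by -0.03 with an interval from -0.16 to 0.10. Neither was called.

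Lysosomal genes outside the 49 were counted from lists of 34 further hydrolases, 28 membrane proteins, 10 pump isoforms, 18 genes of mannose 6-phosphate tagging and sorting, and 16 regulators. Their counts stand beside 37.5% of all entries higher and 14.3% lower after CS1, 49.5% and 24.6% after CS2, and 31.9% and 24.5% with shFTO. Of the 31 hydrolases tested, 24 were higher and 1 lower after CS1, 15 and 9 after CS2, and 25 and none with shFTO. The shares higher were 77.4%, 48.4% and 80.6%, of which that after CS2 was near the share of all entries, as was the 29.03% that were lower. With median-ratio scaling the CS2 split became 12 higher and 13 lower. CTSV, a cathepsin close to CTSL, had 23.1 ± 0.679 TPM in CS2 and 5.46 ± 0.379 TPM in DMSO libraries (1.90) and was not called with shFTO (-0.13).

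Of 23 membrane proteins tested, 13 were higher and 2 lower after CS1, 13 and 7 after CS2, and 12 and 4 with shFTO, shares of 56.5%, 56.5% and 52.2% higher and 8.70%, 30.4% and 17.4% lower. CLCN7, the chloride-proton exchanger of the lysosome, was lower after both compounds and higher with shFTO, with 76.4 ± 1.74 TPM in CS1, 31.1 ± 2.13 in CS2 and 89.7 ± 1.97 in DMSO libraries, and 149 ± 11.9 TPM in shFTO and 106 ± 1.17 TPM in shNS libraries. Its fold change was -0.23 after CS1, -1.50 after CS2 and 0.49 with shFTO. CD68, a macrophage lysosomal glycoprotein, was higher in all 3 comparisons (1.44, 2.01 and 1.3). Of the 6 pump isoforms tested, 1 was higher and 2 lower after CS1, 3 and 3 after CS2, and 4 and 1 with shFTO.

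Among 17 sorting genes tested, 7 were higher and 3 lower after CS1, 11 and 5 after CS2, and 8 and 4 with shFTO. The shares higher, 41.2%, 64.7% and 47.1%, compare with 37.5%, 49.5% and 31.9% of all entries, and the first is near it. AP3D1, of the adaptor that routes membrane proteins to lysosomes, was lower after CS2 (-0.66) and higher after CS1 (0.20) and with shFTO (0.22). Of the 16 regulators, 8 were higher and 1 lower after CS1, 10 and 3 after CS2, and 7 and 4 with shFTO, or 50%, 62.5% and 43.8% higher. With CS2, RRAGA, a nutrient-sensing GTPase that recruits mTORC1 to the lysosome, had 61.2 ± 1.70 TPM against 31.05 ± 1.24 TPM in DMSO libraries (0.96), and its scaffold partner LAMTOR2 had 34.5 ± 4.41 TPM against 75.4 ± 2.56 TPM (-1.11). Neither was called after CS1 or with shFTO. FLCN, a regulator of TFEB and TFE3, was higher in all 3 comparisons (0.21, 0.99 and 0.21), and so was TFEC, a relative of TFEB (0.58, 1.37 and 1.09).

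Most tested markers of mature monocytes and macrophages were also higher in each comparison. CD68, counted above among lysosomal membrane proteins, is on this list too. Of all tested entries, 37.5% were higher after CS1, 49.5% after CS2 and 31.9% with shFTO, where 24.5% were lower. Of the 12 markers, 9 were tested, and 9 were higher after CS1, 9 after CS2 and 6 with shFTO, where 2 were lower. Their summed level was 1040 to 1108 TPM in CS1, 3449 to 3601 TPM in CS2 and 277 to 315 TPM in DMSO libraries. It was 2708 to 3344 TPM in shFTO and 556 to 561 TPM in shNS libraries, and in shFTO 2226 ± 306 TPM of it came from LYZ. In CS2, 1987 ± 62.3 TPM came from S100A9 and 686 ± 29.6 TPM from S100A8, of which S100A9 was lower with shFTO and S100A8 was not called there. CD14 (0.08 to 0.98 TPM) and MRC1 (0 to 0.04 TPM) were near 0 in all groups. The lymphocyte markers CD3D, CD3E and MS4A1 were near 0 as well, the sum of erythroid and megakaryocyte markers reached at most 0.75 TPM and that of epithelial and fibroblast markers at most 10.6 TPM. The part of these markers in the lysosomal values was not tested.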

How the data were processed

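RNA of 16 NOMO-1 libraries in 5 groups was analysed from 1 table of TPM that the authors deposited, with 26830 entries and 1 column per library. The submitters' processing notes list RSEM 1.2.31 and the build GRCh38; aligner, annotation and strand setting were not given in the sources used here. Without read counts, depth is unknown and counting error could not be estimated. All columns were matched to samples by name, and 0 pairs of libraries were identical. Values were taken as deposited as log2(TPM + 1), with entries of at least 1 TPM in at least 3 libraries tested (14951). Limma 3.58.1 in R 4.3.3 (mean-variance trend, 1 mean per group, no replicate term) gave two-sided p-values for 6 comparisons, adjusted by Benjamini-Hochberg over all entries tested. The test was tried on simulated data. Positions come from GENCODE 29 and promoter windows from RefSeq (GRCh38.p14). Tables and plots used Python 3.11.15, numpy 2.4.6, pandas 2.3.3 and matplotlib 3.10.9.

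The 49 genes, the further lists and the tests were chosen with earlier results of these data known. Genes described in full were TFEB, TFE3 and MCOLN1, fixed beforehand, and those with the 8 largest changes called in each compound or hairpin comparison. The latter needed a mean of at least 5 TPM in the higher group. CTSZ also met this rule and is given by its fold changes only. CTSD, CTSC, ASAH1 and ATP6V1C1 were added after their values were seen. Alternatives were other pseudocounts and filters, median-ratio, quantile and composition scaling, a replicate block, fits of only the groups compared and leaving out each library. The labels do not say what a replicate number shares, so the numbers were not treated as pairs. Same-numbered libraries deviated together only weakly (r between -0.014 and 0.22). They were still the best match except for replicate 1 of each compound against DMSO. Some genes of the further lists are counted but not reported here by name.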

Additional observations from a re-analysis of the deposited data

Results flagged for a closer look

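GLB1 had 171 TPM in DMSO replicate 4, while the other DMSO libraries lay close together at 163 to 164 TPM. The gap made up 0.90 of the range, above Dixon's 95% critical value for 4 libraries. Of 47 lysosomal genes examined in the DMSO group, this was the 1 so marked, and chance marks about 1 in 20 groups. The GLB1 value after CS2 kept its sign and call without this library.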

How the results depend on the processing

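The calls depended mostly on scaling. The number of genes lower after CS1 was 1 as reported, 3 with median-ratio scaling, 2 with quantile normalization, 2 with composition scaling, 0 with a replicate block and 0 to 2 when single libraries were left out. Median-ratio scaling moved the number lower after CS2 to 11 (from 7), with shFTO to 4 (from 2) and in CS1 against CS2 to 14 (from 22). The other counts stayed within 1.5 times. The cause was not tested.

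Values called as reported or under the alternative changed sign as follows. With median-ratio scaling CS1 against DMSO gave GAA -0.0076, GLB1 -0.0227, MAN2B1 -0.0278, LIPA -0.12 and ATP6V0E1 -0.0083, and with quantile normalization GAA -0.0137 and MAN2B1 -0.0041. For CS2 against DMSO, median-ratio scaling gave CTSA -0.0135, MAN2B1 -0.12, PPT1 -0.15, ATP6V0C -0.0439, ATP6V1A -0.0247 and ATP6V1G1 -0.18. Quantile normalization gave MAN2B1 -0.11, PPT1 -0.0052, ATP6V1A -0.0263 and ATP6V1G1 -0.17, and composition scaling MAN2B1 -0.0474, PPT1 -0.0690 and ATP6V1G1 -0.10. With quantile normalization CS1 against CS2 gave MAN2B1 0.11 and ATP6V1C1 0.12, CS1 minus hairpin TPP1 -0.16 and GUSB -0.11, and CS2 minus hairpin SCARB2 -0.24, TFE3 -0.23 and GLA -0.12. In that last comparison GLA was -0.0070 with median-ratio and -0.0225 with composition scaling.

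Among such values of single genes, no sign reversed under other pseudocounts or filters, the replicate block, fits of only the groups compared, or without single libraries. Values not called as reported could cross 0 without 1 library, as MCOLN1 with shFTO did (-0.09 to 0.17). The replicate block changed 11 of 282 gene calls (6 gained, 5 lost). Same-numbered libraries matched best in shFTO against shNS, in CS1 against CS2 and, for replicates 2 and 3, in each compound against DMSO. This is a hint from the data and not the design. Depth is unknown, so low values such as LGMN, CTSL and ATP6V0A1 cannot be given a counting error.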

Other observations

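Further lysosomal genes outside the 49 are given as values (mean ± SD), chosen among those with the smallest adjusted p in their lists. EPDR1, a lysosomal lipid-binding protein, had 122 ± 4.55 TPM in CS1, 203 ± 1.72 in CS2 and 88.5 ± 1.92 in DMSO libraries, and 108 ± 5.83 TPM in shFTO and 87.3 ± 4.02 TPM in shNS libraries. CLN3, a lysosomal membrane protein named for neuronal ceroid lipofuscinosis, was higher in all 3 comparisons (0.25, 0.75 and 0.67 for CS1, CS2 and shFTO). The transporter ABCA2 was higher after CS2 (1.13) and after CS1 (0.21) and was not called with shFTO. The pump isoform ATP6V1E2 was lower after CS1 (-0.23) and CS2 (-0.45) and higher with shFTO (0.28). ATP6V0E2 was higher after CS2 (0.27) and lower with shFTO (-0.33).

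Adaptors that sort mannose 6-phosphate receptors moved apart after CS2. GGA3 had 16.8 ± 0.110 TPM in CS2 and 26.8 ± 0.470 TPM in DMSO libraries (-0.64), whereas GGA2 had 109 ± 2.97 TPM in CS2 and 75.6 ± 0.465 TPM in DMSO libraries (0.52). AP1S1 had 117 ± 1.43 TPM in CS2 and 75.5 ± 1.43 TPM in DMSO libraries (0.63). None of these 3 was called after CS1. All fold changes are limma values on the log2(TPM + 1) scale as deposited.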
